A study of Mus musculus with 12 samples.

Results

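The regions described here are the 617 distal sites at which a BMAL1 peak was called in every one of 6 BMAL1-ChIP-seq libraries, 3 from control and 3 from senescent primary mouse adult fibroblasts (MAFs). Peaks of the 6 lists were merged wherever they overlapped by 1 bp or more, which gave 16813 regions on chromosomes 1 to 19 and X. Of these, 1105 held a peak in all 6 libraries, and 617 of the 1105 (55.8%) had their midpoint more than 1000 bp from any protein-coding start site, while the other 488 were promoter regions. The members were thus chosen by their peak calls, so that they were called in all libraries is no result, and their ranks come from the same lists.

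The fibroblasts were wild type and, per the methods, came from adult female mice (C57BL6/J, ear tissue), cultured in 10% serum at 3% oxygen. The senescent group had received 20 Gy of X-rays and the control group a sham irradiation, and the irradiated cells were kept in culture for some weeks, per the methods. Later both groups were given 100 nM dexamethasone, a glucocorticoid that sets the phase of the clock in cultured cells, for 2 hours, and were collected 12 hours later, so that every library carries the dexamethasone treatment. Nothing in the sources used here says whether replicates came from separate animals or cultures, and p-values then measure only the spread between these libraries. Peak lists hold no expression values, so the cell type and the senescent state were not checked against markers here.

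BMAL1 is the non-redundant activator of the circadian clock. As a heterodimer with CLOCK or NPAS2 it binds the E-box, CACGTG, in the control regions of Per and Cry genes, of the nuclear receptor genes Nr1d1 and Nr1d2 and of output genes such as Dbp and Hlf, and the PER and CRY proteins then repress it. The heterodimer is known to occupy closely spaced pairs of E-boxes, of which one copy is often imperfect, and much of its binding lies away from promoters. AP-1, the dimers of FOS and JUN proteins, binds TGACTCA and is known for responses to stress and for the enhancers of senescent cells.

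The sequences at the best-scoring peaks show both arrangements. The first set holds the best-ranked distal regions that had an E-box within 100 bp of the peak centre and a second E-box, with at most 1 mismatch, 6 bp away. All sequences are the forward strand of mm10 (GRCm38), 5′ to 3′, and a signed distance is that of the region's midpoint from the nearest protein-coding start, negative when upstream of it. Capitals mark the E-box and its partner.
Lsm3 +83155, chr6:91599168-91599205: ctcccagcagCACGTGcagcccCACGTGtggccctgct
Bhlhe41 +9363, chr6:145855881-145855918: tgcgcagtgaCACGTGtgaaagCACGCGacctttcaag
Klhl29 +77609, chr12:5213781-5213818: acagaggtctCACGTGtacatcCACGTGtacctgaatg
Actbl2 +5075, chr13:111259973-111260010: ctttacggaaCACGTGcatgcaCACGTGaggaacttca
Kifc3 -23465, chr8:95166040-95166077: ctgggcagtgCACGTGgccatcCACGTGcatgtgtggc
Fam25c -8210, chr14:34363620-34363657: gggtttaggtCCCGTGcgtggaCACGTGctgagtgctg

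The region upstream of Hlf held such a pair 125 bp from the centre of its best peak, outside the 100 bp searched, and other well-ranked regions held a single E-box. The next set shows these, together with 3 regions whose rank differed between control and senescent libraries (Hlf +21060, Klf9 -5479 and Cstad -49715). Capitals mark CACGTG.
Hlf -27457, chr11:90418189-90418224: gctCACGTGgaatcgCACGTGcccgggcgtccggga
Nr1d1 -8136, chr11:98783527-98783562: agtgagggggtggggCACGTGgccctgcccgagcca
Efcab10 -14506, chr12:33380356-33380391: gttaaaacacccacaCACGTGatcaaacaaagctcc
Hlf +21060, chr11:90369842-90369877: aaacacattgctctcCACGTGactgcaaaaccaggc
Klf9 -5479, chr19:23135853-23135888: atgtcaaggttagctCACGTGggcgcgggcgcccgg
Cstad -49715, chr2:30545305-30545340: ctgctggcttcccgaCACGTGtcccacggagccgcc

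Regions without an E-box near the centre carried other letters. The best-ranked distal region with no CACGTG anywhere, in an intron of Rere and nearest to the Slc45a1 start, had the variant E′-box CACGTT, here read as AACGTG on the forward strand. The next lines show it and AP-1 sites, in capitals, at the best-ranked AP-1 region without an E-box in its window, at Irx5 -166832, and at Wipf1 +24640, where CACGTG lies 9 bp before the AP-1 site.
Slc45a1 +68410, chr4:150583667-150583702: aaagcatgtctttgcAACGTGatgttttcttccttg
AI429214 +55928, chr8:37049453-37049489: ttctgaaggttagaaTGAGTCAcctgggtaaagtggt
Irx5 -166832, chr8:92190746-92190782: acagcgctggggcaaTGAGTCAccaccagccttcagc
Wipf1 +24640, chr2:73429318-73429354: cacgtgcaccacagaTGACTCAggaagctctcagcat

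The distal region with the most E-boxes, 18 in its 840 bp, lies in an intron of Slc38a10 and nearest to the Ndufaf8 start. Its central 200 bp held 9 E-boxes, in capitals, in a unit repeated head to tail in which most E-boxes come in pairs 3 bp apart.
Ndufaf8 +15713, chr11:120114557-120114756: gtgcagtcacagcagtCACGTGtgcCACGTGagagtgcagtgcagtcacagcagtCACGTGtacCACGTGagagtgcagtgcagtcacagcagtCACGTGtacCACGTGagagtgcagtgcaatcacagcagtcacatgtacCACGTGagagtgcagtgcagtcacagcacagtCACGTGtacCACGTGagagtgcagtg

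Another group of members lay on genes for tRNAs. One of the best-ranked, 3177 bp downstream of the Borcs6 start, held 4 tRNA genes, of which 1 is printed next, read along its own strand (minus). Capitals mark the B box, the internal promoter element of RNA polymerase III at tRNA genes.
n-TTagt7, chr11:69062744-69062817: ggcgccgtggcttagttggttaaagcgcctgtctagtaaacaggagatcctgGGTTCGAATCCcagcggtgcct

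The 6 lists held 2794, 3349 and 10601 peaks in control 1, 2 and 3, and 4220, 9805 and 5053 in senescent 1, 2 and 3, so the longest and the shortest list were both control. The depth behind the lists is unknown, and a region with no peak was not called rather than shown to be free of BMAL1. Distal regions called in 5 libraries numbered 338, of which 141 lacked a peak in control 1 and 101 in control 2, the shortest lists, against 8 in control 3, 40 in senescent 1, 10 in senescent 2 and 38 in senescent 3. The scores, −log10 of a q-value, are not comparable between libraries. They were therefore turned into the shared rank, a region's place among the 1105 regions called in all 6 libraries in percent, where a value near 0 is the best score and 100 the worst. Across distal regions, the shared ranks of pairs of libraries had a Spearman correlation of 0.652 to 0.712 within control, 0.797 to 0.845 within senescent and 0.502 to 0.537 between the groups.

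The distal regions lay at a wide range of distances from start sites. Their median distance to the nearest protein-coding start was 19402 bp, with quartiles of 7073 and 49808 bp, and the farthest lay 795219 bp away. The centre of the best-scoring peak lay outside protein-coding transcripts in 379 regions, in an intron in 222, in an untranslated exon in 9 and in a coding exon in 7. Non-coding genes did not enter this split, so the 379 can include centres inside them. Upstream and downstream positions were about as frequent, 299 and 318. The median merged region was 652 bp long, and 436 of 617 were made of a single peak per library. Next to the limit, the closest members inside the rule lay 1019 bp from Hspa8, 1022 bp from Zfp36 and 1025 bp from Nfe2l2, and the promoter regions just outside it lay 999 bp from Nr1d1, 996 bp from Dbp and 993 bp from Ltbp4. In 6 members, among them the region at Per1, the best peak itself lay within 1000 bp of a start although the midpoint of the merged region did not, and 90 lay within 1000 bp of the start of a non-coding gene.

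The members had 540 different nearest genes, 2.47% of the 21899 protein-coding genes, and 55 genes were nearest to more than 1 of them. For 53 members (8.59% of the regions) the same nearest gene also had a promoter region called in all 6 libraries. Of all protein-coding genes 2.21% had one, which is a share of genes and not of regions. A nearest gene is a position and not a target. In 64 members the best peak lay in an intron of a gene other than the nearest.

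The E-box was the most frequent of the motifs searched. CACGTG lay within 100 bp of the centre of the best peak in 253 of 617 distal regions (41.0%, 95% Wilson interval 37.2 to 44.9%), against 27 of 1234 flanking windows, 200 bp long and centred 2000 bp away on each side (2.19%). The share was 49.2% in the promoter regions called in all 6 libraries, 13.7% in distal regions called in 1 to 5 libraries and 16.7% in all merged regions. A rearranged E-box with the same bases, ACCGGT, was found in 1.62% of the distal regions. CACGTT, the E′-box, was found in 69 (11.2%), against 2.35% of the flanking windows. These intervals and those that follow cover the counting of regions only.

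AP-1 sites were less frequent. TGACTCA, searched on both strands with C or G as its middle base, lay in 97 of 617 windows (15.7%, 95% Wilson interval 13.1 to 18.8%), against 4.05% of the flanking windows and 3.48% of the promoter regions called in all 6 libraries. Distal regions called in 1 to 5 libraries had it more often, in 22.8%. A rearranged form with the same bases was found in 0.486% of the distal regions. An E-box alone lay in 217 windows, an AP-1 site alone in 61, both in 36 and neither in 303. Of the other motifs searched, the TEAD motif ACATTCC was found in 6.48% of distal regions against 2.67% of flanks, and the GC-box GGGGCGG in 7.29% against 35.5% of the promoter regions. These are matches of letters, and weaker variants of each site are not counted.

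E-boxes and AP-1 sites were both denser near the peak centre than away from it. In the 50 bp on either side of the centre there were 0.149 and 0.156 E-boxes per region. In the outermost 50 bp plotted at the lower and at the higher coordinates there were 0.0146 and 0.00648. AP-1 sites numbered 0.0551 and 0.0502 per region on either side of the centre, against 0.00648 and 0.00810 in the same outermost steps.

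**Figure D1:**
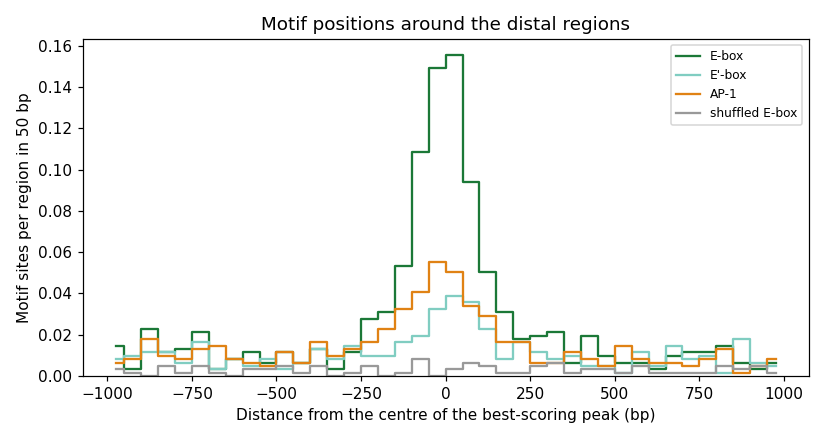
Sites per region in steps of 50 bp (y axis) by distance in bp from the centre of the best-scoring peak (x axis), for the E-box, the E′-box CACGTT, the AP-1 motif and a rearranged E-box in the 617 distal regions. E-box sites rise to 0.156 per region at the centre and AP-1 sites to 0.0551, while the rearranged E-box stays low throughout.

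The spacing seen in the printed pairs recurred. Of the 253 windows with an E-box, 27 (10.7%) had another with at most 1 mismatch exactly 6 bp away, and 11 (4.35%) had one 7 bp away. For this comparison 200 bp windows were laid side by side from 2000 to 5000 bp on each side of the centre. In the 546 of them with an E-box the same gaps were found in 2.56% and 0.733%. In the 240 E-box windows of promoter regions called in all 6 libraries they were found in 5.83% and 2.5%. There too 6 bp was the most frequent gap. A second copy without any mismatch was found 6 bp away in 5 of the distal windows, of which Lsm3, Klhl29, Actbl2 and Kifc3 are printed above. Pairs at either gap lay in 38 of the 253 distal regions with an E-box (15%), and in 13 of the 62 (21%) among the 100 best-ranked. The gap of 6 bp was singled out after all gaps up to 30 bp had been counted, so no test is given, and that of 7 bp was close to the next most frequent (3.56%).

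**Figure D2:**
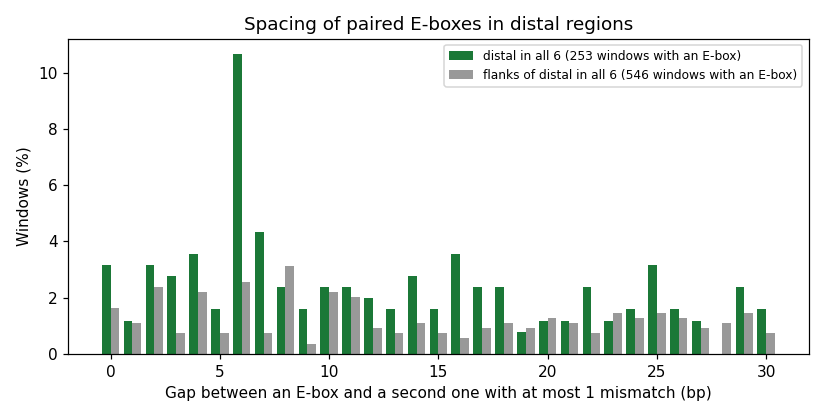
Share of windows with an E-box (y axis, percent) that held a second E-box with at most 1 mismatch at each gap in bp (x axis), for the 253 distal windows and for the 546 windows with an E-box laid 2000 to 5000 bp from the centres. The bar at 6 bp reaches 10.7% in the distal windows and 2.56% in the flanks.

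Of the 10 best-ranked distal regions, 5 were nearest to genes of the clock. Ordered by the mean of their rank within each list, the first 10 were nearest to Per1, Lsm3, Nr1d1, Ap5s1, Bhlhe41, Cry2, Efcab10, Hlf, Klhl29 and Slc45a1. The region at Per1, which encodes a repressor of CLOCK and BMAL1, spans chr11:69094065-69100376, and its best peak is centred in an intron, 864 bp downstream of a start. It was 2nd, 1st and 1st of its whole list in control 1, 2 and 3, and 2nd, 2nd and 1st in senescent 1, 2 and 3. Its place was thus the same to within 1 step in the 6 libraries, and it held 5 E-boxes, none of them within 100 bp of the best peak's centre.

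The region 8136 bp upstream of Nr1d1 (chr11:98782616-98784322), the gene of the repressor REV-ERBα, was 7th, 7th and 12th in the control lists and 8th, 7th and 9th in the senescent lists. The region 83155 bp downstream of the start of Lsm3 (chr6:91598409-91599996), a gene of RNA processing, was 8th, 8th and 9th against 7th, 9th and 7th. Its best peak is centred outside protein-coding transcripts, and its midpoint lies 29 bp from a non-coding start, that of Gm45218. Neither region separated control from senescent. The region 9363 bp downstream of the start of Bhlhe41 (chr6:145855066-145856811), which encodes the E-box repressor DEC2, was 23rd, 17th and 15th in control against 11th, 10th and 10th in senescent. In an intron of Cry2 (chr2:92422490-92425358), the gene of a repressor partner of PER, the region was 24th, 19th and 25th against 15th, 14th and 15th. The region 27457 bp upstream of Hlf, a PAR bZIP output factor, was 27th, 28th and 38th against 12th, 18th and 13th.

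At Bhlhe41, Cry2 and Hlf every senescent list gave a better place than any control list, but the lists differ in length. In the shared rank the groups did not overlap at Bhlhe41 and Hlf, and touched at Cry2, where control 2 and senescent 3 both had 1.36%. The groups differed little at all of them. For Hlf -27457 the shared rank was 2.08, 2.08 and 2.90% in control and 0.996, 1.63 and 1.18% in senescent, and limma gave an adjusted p of 0.385. For Bhlhe41 and Cry2 the adjusted p values were 0.684 and 0.787. Per1, Lsm3, Nr1d1, Ap5s1, Efcab10, Klhl29 and Slc45a1 did not pass that test either (adjusted p 0.525 to 0.954). Among these, Klhl29 separated the other way, with shared ranks of 1.36, 1.63 and 2.08% in control and 2.53, 2.81 and 2.53% in senescent. A p that misses the threshold does not show that binding was alike.

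Of the 31 genes of a clock and clock output list, 7 (22.6%) were the nearest gene of a distal region called in all 6 libraries, beside 2.47% of all protein-coding genes, and 13 had such a region at their promoter. The lists that follow had shares of 10.7 to 34.6%, also above 2.47%, so a high share was not particular to clock genes. The list, like those that follow, was drawn up with earlier results of these data known. Among the lower-ranked, Bhlhe40 +7721, near the gene of DEC1, had shared ranks of 57.3, 73.3 and 38.1% in control and 36.6, 58.8 and 65.3% in senescent, which overlap, and it holds an E′-box and no E-box.

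The second region at Hlf behaved otherwise. Hlf +21060, in an intron of that gene (chr11:90369536-90370133), had shared ranks of 92.3, 75 and 61.9% in the control libraries and of 15.3, 13.0 and 22.4% in the senescent libraries. The groups did not overlap, and the mean rank was 59.5 percentage points better in senescent (limma, Benjamini-Hochberg adjusted p = 0.0371 over 1105 regions). The region upstream of Hlf was among the best in all 6.

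**Figure D3:**
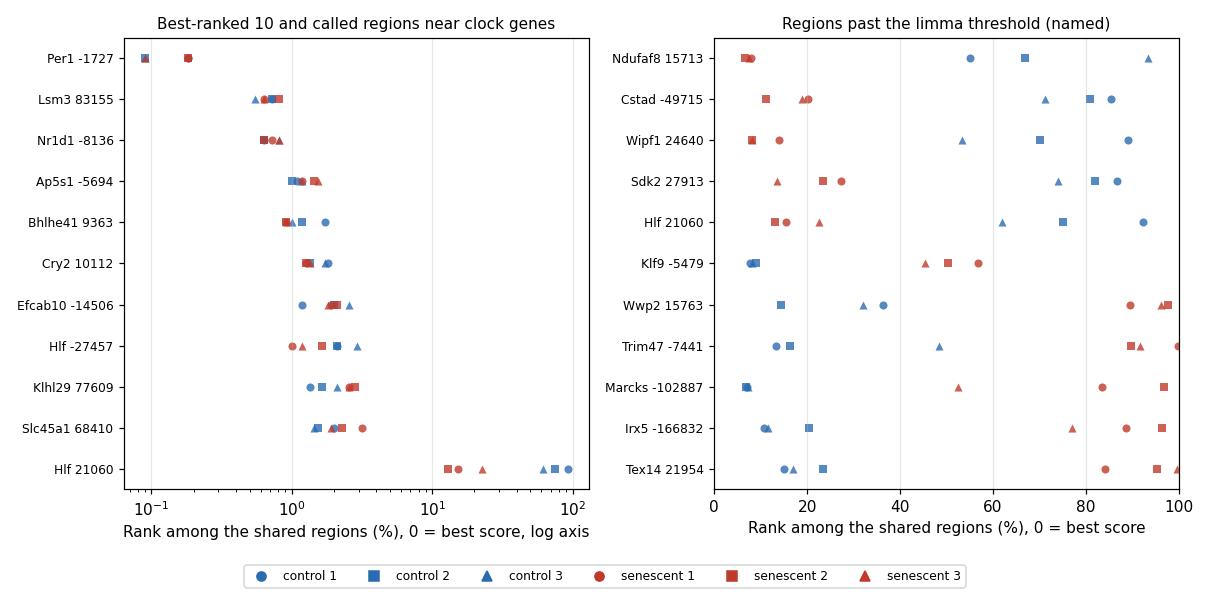
Rank among the 1105 shared regions in percent (x axis, 0 is the best score, log axis on the left) of named distal regions (y axis, nearest gene and signed distance in bp), 1 point per library, control in blue and senescent in red. On the left the best regions stay within a few percent in all 6 libraries while Hlf 21060 lies at 13.0 to 22.4% in senescent and 61.9 to 92.3% in control, and on the right are the named regions with an adjusted p under 0.05.

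Of 19 genes known to be induced by glucocorticoids, 5 (26.3%) were the nearest gene of 8 distal regions. Tsc22d3, which encodes the glucocorticoid-induced leucine zipper GILZ, had 2 of them, both among the 20 best-ranked. Tsc22d3 +22767 had shared ranks of 1.90, 2.17 and 1.90% in control and 3.62, 3.53 and 4.48% in senescent, and Tsc22d3 +31945 had 3.44, 2.35 and 2.35% against 3.44, 3.71 and 2.71%. The first was somewhat better in control without overlap, with an adjusted p of 0.309.

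Klf9, a Krüppel-like factor induced by glucocorticoids, had 3 distal regions. Klf9 -5479 (chr19:23135280-23136214), with the E-box printed above, had shared ranks of 7.69, 8.96 and 8.19% in control and of 56.7, 50.3 and 45.4% in senescent. The control ranks lay close together and all were better than the senescent ones, and the mean rank was 42.5 points worse in senescent (limma adjusted p = 0.0272). The other Klf9 regions are given after their values were seen. Klf9 -4641, beside the first, had 64.3, 55.0 and 95.6% against 88.1, 98.5 and 88.3%, and Klf9 +1728, in an intron, had 70.4, 95.6 and 90.1% against 64.7, 77.2 and 66.3%. In neither did the groups separate. Over the 8 regions of the list, 2 did not overlap with senescent better and 2 with control better, beside 17.9 and 17.8% of all shared regions.

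Of 15 AP-1 subunit genes, 3 (20.0%) were nearest to a distal region, and all 3 regions were among the weaker members. Fos -18360, upstream of the gene of the founding FOS protein, had shared ranks of 48.2, 58.6 and 75.4% in control and 88.1, 83.5 and 82.8% in senescent. Atf3 -6555, at the gene of a stress-induced bZIP factor, had 83.8, 98.4 and 93.0% against 79.4, 76.4 and 72.8%. The groups did not overlap in either, control being better at Fos and senescent at Atf3, and neither passed limma (adjusted p = 0.123 and 0.157). Junb +2191 had 78.7, 78.9 and 90.5% against 81.6, 99.5 and 87.3%, with overlap.

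Of 28 genes of senescence and p53, 3 (10.7%) were nearest to 4 distal regions. Bcl2l1 +23913, in an intron of the gene of the survival factor BCL-XL, held 2 AP-1 sites and 1 E-box, the latter 603 bp from the best peak's centre. Its shared ranks were 33.9, 49 and 30.4% in control and 9.23, 9.64 and 9.77% in senescent. The senescent ranks were alike and better without overlap, by 28.2 points, but the adjusted p was 0.0551. Ccng1 -35164, near a p53 target gene, had 78.7, 35.9 and 28.2% against 74.3, 81.9 and 50.4%.

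Of 26 genes of the matrix and TGF-beta signalling, 9 (34.6%) were nearest to 10 distal regions. Of these regions, 4 did not overlap with control better and 0 with senescent better, beside 24.0 and 15.7% of all distal regions. The best-ranked was nearest to Smad7, the inhibitory SMAD, and lay in an intron of Ctif. Its shared ranks were 5.20, 4.16 and 10.5% in control and 2.99, 5.84 and 3.98% in senescent. Col1a1 -63216, at the gene of a type I collagen chain, had 14.6, 11.7 and 28% against 41.2, 24.6 and 15.8%, and Smad3 -60396 had 11.5, 37.1 and 28.5% against 58.4, 63.3 and 49.3%. Control was better without overlap at Smad3 (adjusted p = 0.116). The other members of the list are at Fn1, Thbs1, Ccn1, Ccn2, Tgfb2 and Timp3.

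The comparison of the groups asked whether the order of the shared regions differs between control and senescent cells. Over all 1105 regions, limma on normal scores of the ranks called 41 at an adjusted p under 0.05 (3.71%), 19 ranked higher in senescent (1.72%) and 22 ranked lower (1.99%). Of the 617 distal regions, 8 were ranked higher in senescent (1.30%) and 21 lower (3.40%). Counting regions whose libraries did not overlap, 97 distal regions (15.7%) were better in senescent, beside 17.9% of all shared regions, and 148 (24.0%) were better in control, beside 17.8%. None of the calls stood without any one of the senescent libraries (0 of 29 distal calls), and 13, 0 and 2 of them stood without control 1, 2 and 3. All 29 kept their direction each time, but they were picked for their difference in these same libraries, so the kept direction is no support for them.

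Of the 8 distal regions ranked higher in senescent, 7 had an E-box in the window, beside 41.0% of all distal regions. Ndufaf8 +15713, with the repeated E-boxes printed above, had shared ranks of 55.0, 67.0 and 93.4% in control and 7.87, 6.70 and 7.38% in senescent. Its senescent ranks lay close together and its control ranks far apart, and the mean was 64.5 points better in senescent (limma adjusted p = 0.0371).

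Wipf1 +24640 (chr2:73428981-73429696), the E-box and AP-1 region printed above, had 89.0, 70.0 and 53.2% against 14.0, 8.14 and 8.05%. Cstad -49715 (chr2:30544961-30545688), with 3 E-boxes, had 85.4, 81.0 and 71.2% against 20.1, 11.1 and 18.8%. Sdk2 +27913 (chr11:114038053-114038557), in an intron of a gene of cell adhesion, had 86.7, 82.0 and 73.9% against 27.3, 23.3 and 13.5%. In all 3 every senescent library ranked the region better than every control library, by 60.7, 62.5 and 59.5 points in the mean (adjusted p = 0.0371, 0.0272 and 0.0272). Atf6b +8577, Gm45213 -88184 and Col17a1 -18362 complete the 8, with 54.1, 50.3 and 28.3 points.

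Of the 21 distal regions ranked lower in senescent, 11 had an E-box, 2 an AP-1 site and 2 an snRNA gene, beside 41.0, 15.7 and 3.57% of all distal regions. Irx5 -166832 (chr8:92190351-92191234), far upstream of a homeobox gene and with the AP-1 site printed above, had shared ranks of 10.8, 20.5 and 11.5% in control and 88.6, 96.4 and 77.0% in senescent. Marcks -102887 (chr10:37241427-37242186), with no E-box or AP-1 site, had 7.06, 6.88 and 7.15% against 83.4, 96.7 and 52.5%. Trim47 -7441 (chr11:116117331-116118043), with 1 E-box, had 13.3, 16.3 and 48.4% against 99.7, 89.8 and 91.6%. In these the control libraries held the region among the better-scored and the senescent ones among the last, apart from control 3 at Trim47 and senescent 3 at Marcks, which lay nearer the middle.

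Tex14 +21954 (chr11:87426521-87427517), in an intron of Tex14 and over the small nuclear RNA gene Gm22068, had 15.1, 23.4 and 17.0% against 84.1, 95.2 and 99.6%. Wwp2 +15763 (chr8:107559296-107562253), near a ubiquitin ligase gene, had 36.3, 14.4 and 32.1% against 89.5, 97.6 and 96.1%. The mean ranks of Irx5, Marcks, Trim47, Tex14 and Wwp2 were 73.1, 70.5, 67.7, 74.5 and 66.8 points worse in senescent, with limma adjusted p values of 0.0272, 0.0371, 0.0443, 0.0371 and 0.0272.

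**Figure D4:**
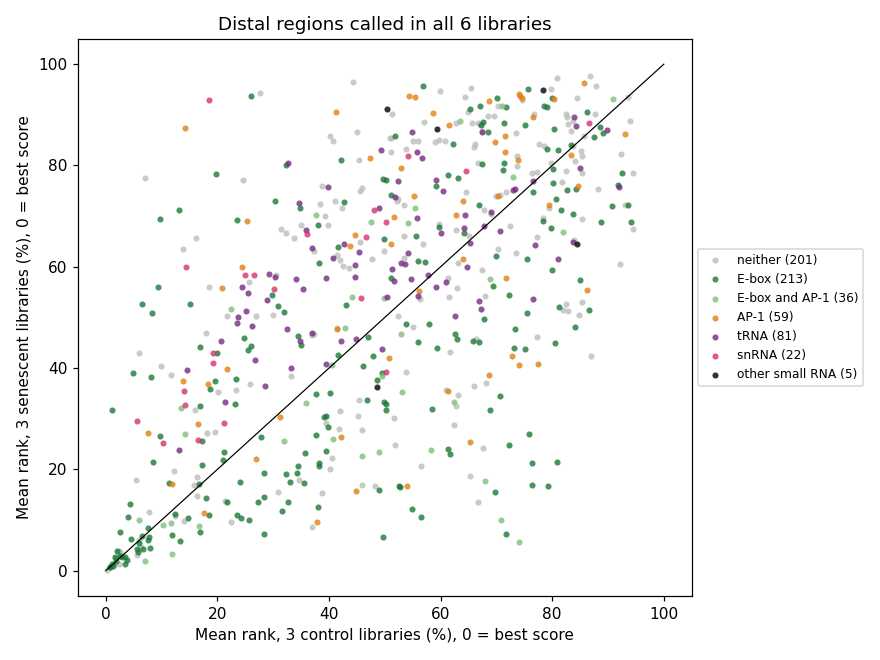
Mean rank over the 3 senescent libraries (y axis, percent) against the mean over the 3 control libraries (x axis, percent) for the 617 distal regions, 0 being the best score, coloured by what lies in the region, with the line of equal rank. The best regions sit near the line at the lower left, and the snRNA and tRNA points lie mostly above it, which is a worse rank in senescent.

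The middle of the distal set lay at a somewhat worse rank in the senescent libraries. The median shared rank of all distal regions was 47.7, 47.6 and 48.4% in control 1, 2 and 3 and 53.5, 57.7 and 54.0% in senescent 1, 2 and 3. Every senescent median was worse than every control median, by 7.19 points in the mean (47.9 ± 0.462 against 55.1 ± 2.27, SD, n = 3 each, exact two-sided permutation p = 0.1, adjusted p = 0.167 over 5 tests). With 3 against 3 libraries, 0.1 is the smallest p that this test can give. The median peak width was 297, 344 and 478 bp against 433, 435 and 436 bp, with control spread on both sides of senescent (exact permutation p = 0.4). The share of regions with an E-box within 100 bp of a library's own peak was 42.5, 40.7 and 39.5% against 44.6, 42.0 and 43.1%, which overlap (exact permutation p = 0.2, adjusted p = 0.25).

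Distal regions with an E-box were ranked better than those without in all 6 libraries. Their median rank minus that of distal regions without an E-box was -14.3, -3.57 and -10.7 points in control 1, 2 and 3 and -23.3, -24.3 and -20.1 in senescent 1, 2 and 3. Over the 6 libraries the mean was -16.1 ± 8.06 points (SD, exact two-sided sign-flip p = 0.03125, the smallest it can give, adjusted p = 0.0938 over 3 tests), which does not pass after adjustment. The gap was wider in every senescent library than in any control library, by 13.0 points (exact permutation p = 0.1, adjusted p = 0.167). With the regions ordered by mean rank and split into 5 equal groups, an E-box lay in 59.7, 43.1, 37.1, 33.3 and 31.7% from best to worst.

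An AP-1 site went with no such order. The same difference for AP-1 was -0.271, 4.62 and 0.226 points in control and -1.76, -2.90 and -4.48 in senescent. Its mean over the 6 libraries was -0.762 points (exact sign-flip p = 0.5625), and the senescent minus control difference was -4.57 points (exact permutation p = 0.1, adjusted p = 0.167). Comparing only regions with an AP-1 site and no E-box with those that had neither turned the latter to 1.15 points. An AP-1 site lay in 13.7 to 17.1% of each of the 5 groups. The best-ranked AP-1 region without an E-box in the window, AI429214 +55928, was 49th of the 617. Its shared ranks were 6.20, 21.3 and 25.1% in control and 10.2, 13.5 and 10.4% in senescent, and those of Iffo2 -29610 were 17.3, 9.32 and 8.87% against 21.4, 16.9 and 12.9%. Slc24a3 -30744, in an intron of that gene, had 8.24, 6.47 and 7.92% against 23.9, 22.7 and 34.9%, better in control without overlap (limma adjusted p = 0.0685). The region with the second most E-boxes, Pomc -24848 with 10, had 2.99, 3.35 and 3.71% against 1.36, 1.18 and 1.27%, better in senescent without overlap (adjusted p = 0.19).

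Of the 617 distal regions, 108 overlapped a gene for a small RNA, 81 of them a tRNA gene, 22 a small nuclear RNA gene (snRNA) and 5 another. These classes were set up after the regions had been seen and are described with no test. The small nuclear RNAs here include U1, U2, U5 and U11, which belong to spliceosomes, U3, which acts in ribosomal RNA processing, and 7SK, which restrains transcript elongation. The 81 tRNA regions held 120 of the 403 annotated tRNA genes (29.8%), while 27 more lay in promoter regions called in all 6 libraries. The best peak's centre lay within 100 bp of the tRNA gene in 71 of 81 and a median of 24 bp away. Only 2 of the 81 had an E-box in the window and 2 an AP-1 site, while 35 held a match to the B box. The B box was searched in a single form of its letters, and variants of that form were not counted. Of the tRNA genes in these regions 65.8% held a match, beside 55.1% of the other tRNA genes. A gene without a match may still hold a variant of the B box, so these are not the shares of genes with the element.

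The share of distal regions on a tRNA gene was under 1% of those called in 1 to 3 libraries and higher in those called in 4 or more. It was 0.197% in 1 library, 0.756% in 2, 0.594% in 3, 3.59% in 4, 9.76% in 5 and 13.1% in all 6. Such genes are multi-copy and highly transcribed, and read pairs were kept also where only 1 end mapped uniquely. Of the whole regions, 0 of the 81 at tRNA genes and 0 of the 22 at snRNA genes had a second copy in the genome. A copy here is a match of at least 95% identity over at least 50% of the region, so shorter matches were not counted. The part of transcription or mapping in these peaks was not tested, as the input libraries were not analysed here.

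The snRNA regions were those in which the groups stood furthest apart. Their median shared rank was 19.1, 27.4 and 26.3% in control 1, 2 and 3 and 43.8, 60.3 and 57.8% in senescent 1, 2 and 3, without overlap and 29.7 points worse in senescent. Of the 22, 14 were better in control without overlap, beside 24.0% of all distal and 17.8% of all shared regions. In senescent 0 were better without overlap, beside 15.7% of all distal regions. The 7 promoter regions at snRNA genes also had a worse mean in senescent (46.8 against 30.2%), though their groups overlapped. Arl4d -7073, over the U2 gene Rnu2-10, had 6.06, 5.11 and 5.43% against 22.2, 45.9 and 20.4%, and Tex14 +17979, over the U1 gene Rnu1a1, had 7.24, 20.5 and 15.3% against 53.5, 63.5 and 62.6%, both named after their values were seen. Tex14 +17979 also passed limma (adjusted p = 0.0371). Of the 22, 5 lie in introns of Tex14 and so are neighbours. Others also lie close together, near Mreg and Pecr on chromosome 1 and at Arhgap5 and Kif2c.

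The tRNA regions were at 60.0, 33.7 and 49% in control against 59.1, 67.5 and 56.6% in senescent. These medians overlap, since control 1 ranked them as low as senescent did. Of the 81, 19 (23.5%) were better in control without overlap, beside 24.0% of all distal regions, and 3 (3.70%) in senescent, beside 15.7%. Borcs6 +3177, with the tRNA gene printed above and named after its values were seen, had 15.7, 13.7 and 9.86% against 21.8, 20.4 and 29.1%.

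The regions without small RNA genes split by motif. Those with an E-box and no AP-1 site (213) had medians of 38.3, 44.2 and 42.0% in control and 38.5, 41.5 and 39.1% in senescent, which overlap. Those with both (36) had 40.8, 48.6 and 43.2% against 34.8, 39.3 and 34.2%, better in senescent without overlap. Those with an AP-1 site alone (59) had 53, 58.8 and 55.2% against 68.7, 64.9 and 61.3%, and those with neither (201) had 50.9, 52.6 and 55.6% against 63.8, 65.5 and 59.3%, both worse in senescent without overlap. Of the regions with neither, 34 had an E′-box in the window and 63 an E-box elsewhere in the region. Without the small RNA regions and any promoter region that overlaps such a gene, the gap between E-box and other distal regions was 10.3 points wider in senescent than in control, against 13.0 with them.

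**Figure D5:**
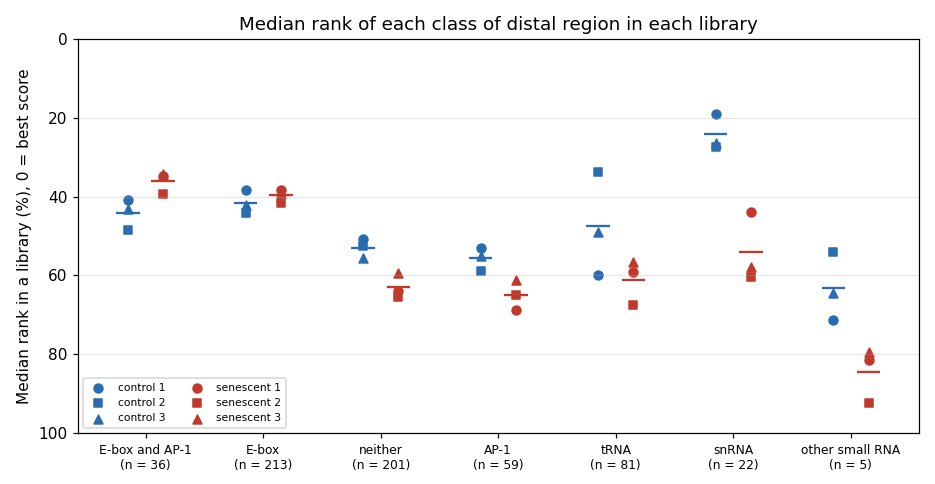
Median shared rank in percent (y axis, 0 at the top is the best score) of each class of distal region (x axis) in the 3 control libraries (blue) and the 3 senescent libraries (red), with a line at the mean of each group. Regions with an E-box and an AP-1 site lie higher in senescent, and the snRNA regions drop from between 19.1 and 27.4% to between 43.8 and 60.3%.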

How the data were processed

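BMAL1-ChIP-seq peak lists of 3 control and 3 senescent libraries were used; the 6 input libraries were not analysed here. The authors mapped read pairs to mm10, removed duplicates with Picard, and called peaks for each library separately with MACS2 at a false discovery rate of 1% or less. Column 5 of the deposited lists was taken to be a −log10 q-value, since its smallest value in every list was just above 2. The lists hold no summits or counts, so depth is unknown and peak centres were used.

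Start sites, exons and introns came from protein-coding transcripts of GENCODE M21 (basic), small RNA genes from RefSeq, and sequence from RefSeq's GRCm38.p6. Motifs were searched as exact letters on both strands within 100 bp of the best-scoring peak's centre. A region's value in a library was its best score, and tied scores shared a mean rank. limma 3.58.1 (R 4.3.3) was fitted to normal scores of the ranks over 1105 shared regions, with Benjamini-Hochberg adjustment, and was tested on simulated data. Single values per library were compared by exact permutation of libraries or, within libraries, by exact sign flips. Other steps used Python 3.11.15, pandas 2.3.3, NumPy 2.4.6, SciPy 1.17.1 and pysam 0.24.0.

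The replicate numbers were not treated as pairs, since the methods describe no pairing. Same-numbered control and senescent libraries did not deviate together, which cannot show whether they were paired. The members, gene lists and tests were chosen with earlier results of these data known. Regions were named by rule: the best-ranked 10, those nearest to clock genes, the best-ranked 3 of other lists, of AP-1 and of neither motif, the 3 with most E-boxes, the 5 largest limma differences of each direction, and those next to the 1000 bp limit. Other named regions were chosen after their values were seen. Some items that the rule names are not reported here.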

Additional observations from a re-analysis of the deposited data

Results flagged for a closer look

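Where the distal regions stood relative to the promoter regions called in all 6 libraries differed between the groups. The median shared rank of distal minus promoter regions was -5.29, -6.95 and -3.12 points in control 1, 2 and 3, so distal regions were the better-ranked in every control library, and 7.01, 17.0 and 9.25 points in senescent 1, 2 and 3, so they were the worse-ranked in every senescent library. The means were -5.12 ± 1.92 and 11.1 ± 5.24 points (SD, n = 3 each), a senescent minus control difference of 16.2 points. An exact two-sided permutation over libraries gave p = 0.1, the smallest that 3 against 3 allows. The comparison was flagged because the groups differed, and groups that do not overlap always give this p. It was not among the planned tests and was not adjusted, so the p adds no support to the difference. Both sets share 1 ranking, so a better place for one is a worse place for the other. With only the better-scored peaks (above a list's median), the control values turned to 1.39, 0.655 and 2.05 points and the senescent ones were 10.4, 20.9 and 11.5, so the control direction depends on that choice while senescent stayed above control.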

How the results depend on the processing

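Depth is unknown, so a peak that was not called may be a matter of depth. The number of distal regions called in all 6 libraries was 617, and fell to 341 when only the better-scored peaks (above a list's median) were used and to 401 at equal list length. The share with an E-box, 41.0%, was 25.3% within 50 bp, 55.4% anywhere in the region, 45.7% with peaks above the median score and 48.9% without regions at small RNA genes, an alternative chosen after seeing the data. The AP-1 share, 15.7%, was 9.89% within 50 bp and 30.5% anywhere in the region.

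Limma's 41 calls over shared regions (8 distal ones higher and 21 lower in senescent) became 88 (23 and 32) with quantile-normalized log2 scores and 149 (40 and 52) with median-centred ones. Leaving out 1 library gave 0 to 30 calls, of which 0 to 11 were distal and higher and 0 to 9 distal and lower. All 29 distal calls kept their direction under these alternatives, which reuse the libraries that the calls were picked from and so give them no support. With the replicate number as a block, 0 were called (adjusted p at least 0.101), although 266 regions had an unadjusted p under 0.05, against 295 without it. Same-numbered libraries' deviations had correlations of 0.068, -0.0474 and -0.0298. With 3 libraries per group these cannot show whether the numbers pair the samples, so the fit with the block remains an alternative.

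The E-box difference over 6 libraries ranged from -18.5 to -14.4 points without 1 library, at p = 0.0625, the smallest that 5 libraries allow by exact sign flips. The AP-1 difference over 6 libraries, -0.762 points, reversed to 0.626 with a promoter limit of 3000 bp, to 3.22 with peaks above the median score and to 0.272 without small RNA regions. Its senescent minus control difference reversed to 1.15 for AP-1 sites without an E-box against neither motif. Distal minus promoter over 6 libraries rose from 2.98 to 7.80 points (exact sign-flip p = 0.03125) with peaks above the median score. The cause of these changes was not tested.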
